A study of Mus musculus with 2 samples.

Results

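The integrins, adhesion ligands and tetraspanins are 61 genes of the 55536 annotated genes in the tables. They were chosen by symbol (integrin-named genes, numbered Tspan genes, and Icam1, Icam2, Vcam1, Selplg, Cd9, Cd37, Cd53, Cd81, Cd82 and Cd151) and by having at least 1 transcript annotated as protein coding, as 21901 genes had. The rule used symbols and annotation and no expression value, though members were chosen with earlier results of these data known. The set holds 18 integrin alpha genes, 9 integrin beta genes, 4 genes named after integrins that encode no subunit, 4 adhesion ligands and 26 tetraspanins. PolyA-selected RNA was sequenced from macrophages grown from C57BL/6J mouse bone marrow and stimulated for 30 minutes at 100 ng/ml. One label names the stimulus lipid A, a Toll-like receptor ligand, and another names it lipoprotein A, so its identity is left as the labels give it. Both libraries belong to this 1 group, as biological replicates 1 and 2 from separate biosamples of the same donor record. No unstimulated library was analysed here, so the values show levels after stimulation and not a response to it.

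Integrins are surface receptors made of 1 alpha and 1 beta chain, which have to pair before the receptor leaves the endoplasmic reticulum. They bind extracellular matrix, complement fragments or adhesion ligands on other cells, and kindlin and talin inside the cell switch them into a binding state. Tetraspanins are small membrane proteins that hold integrins, proteases and immune receptors together in patches of membrane. Macrophages use these proteins to attach, crawl, take up opsonised particles and fuse.

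The stretches that best show how these genes differ at the sequence level are 2 splice differences in beta2-partner chains and 3 upstream regions. Itgam encodes CD11b, the alpha chain of the complement receptor Mac-1, and its leading pair of transcripts differ in their coding part by 3 bases at an exon start, at chr7:128101634-128101636 of mm10. Itgal encodes CD11a, the alpha chain of LFA-1, and a pair of its transcripts differ likewise by 3 bases at an exon end, at chr7:127317364-127317366. Each line gives the spliced reference sequence across the junction from the plus strand, 5′ to 3′, with the extra bases in capitals.
Itgam-201: ttgcctcgagggCAGagggcacggtgg
Itgam-203: ttgcctcgagggagggcacggtgg
Itgal-201: agggaccaaaagGTGggcagggccatg
Itgal-202: agggaccaaaagggcagggccatg
The coding lengths follow from this, at 3462 bases for Itgam-201 and 3459 bases for Itgam-203, and at 3486 bases for Itgal-201 and 3483 bases for Itgal-202.

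The upstream regions are the 250 bases before the RefSeq start site (GRCm38.p6, the same coordinates as mm10) of Icam1, which of the 39 members tested between the libraries differed most in scaled counts, and of Itgam and Cd53, a myeloid integrin chain and the most abundant member. Capitals in Icam1 mark matches to GGNNNTTCC, a form of the site bound by NF-kB, on either strand. Capitals in Itgam and Cd53 mark GAGGAA on either strand, the core bound by the myeloid factor PU.1. The PU.1 motif and the Itgam and Cd53 regions were chosen after the values were seen.
Icam1, chr9:21015690-21015939, plus strand: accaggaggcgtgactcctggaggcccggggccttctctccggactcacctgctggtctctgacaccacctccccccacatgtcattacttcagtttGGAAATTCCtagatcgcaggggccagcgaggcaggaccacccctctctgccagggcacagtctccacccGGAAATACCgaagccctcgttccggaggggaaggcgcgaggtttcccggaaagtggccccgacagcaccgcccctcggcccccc
Itgam, chr7:128062390-128062639, plus strand: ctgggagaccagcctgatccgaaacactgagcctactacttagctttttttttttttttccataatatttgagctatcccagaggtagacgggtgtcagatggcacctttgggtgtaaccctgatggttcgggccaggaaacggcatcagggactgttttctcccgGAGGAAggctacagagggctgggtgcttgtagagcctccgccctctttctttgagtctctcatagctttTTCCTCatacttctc
Cd53, chr3:106790150-106790399, minus strand: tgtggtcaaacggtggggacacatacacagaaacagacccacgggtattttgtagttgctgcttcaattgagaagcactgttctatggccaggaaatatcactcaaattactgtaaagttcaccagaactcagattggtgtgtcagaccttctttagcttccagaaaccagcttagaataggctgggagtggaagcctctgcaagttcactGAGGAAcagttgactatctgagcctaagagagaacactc
In Icam1 the first match lies at -153 to -145 from the start site and matches on both strands, and the second lies at -84 to -76 on the minus strand. In Itgam the matches begin at -84 and, on the minus strand, at -15, and in Cd53 the single match lies at -39 to -34. The NF-kB form is in 15.7% of all 32851 RefSeq promoters and in 11 of 60 promoters (18.3%) of the 48 matched members. The PU.1 core is in 23.3% of all promoters and in 18 of the 60 member promoters. A match is a match of letters only and shows no binding.

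Depth and cell identity bear on all values that follow. Expected counts over genes summed to 37784941 in replicate 1 and 51904470 in replicate 2, of which the 61 members took 0.479% (95% Wilson interval 0.477 to 0.481) and 0.463% (0.461 to 0.464), intervals that cover counting error only. Macrophage markers were high: Adgre1, Csf1r, Cd68, Lyz2, Mertk, Fcgr1 and Cd14 stood at 76.1 TPM or more in both libraries (TPM, a level per length of transcript, scaled to the same total in each library). The B cell markers Cd79a, Ms4a1 and Pax5 and all listed markers of NK cells, stromal cells and dendritic cells were below 1 TPM in both libraries, and of the T cell markers Cd3e, Cd3g and Cd8a were at 0.31 TPM or less while Cd4 stood at 111 TPM in replicate 1 and 82.2 TPM in replicate 2. A nuclear ribosomal RNA gene took 10.9% of counts in replicate 1 and 5.05% in replicate 2, which lowers the TPM of every other gene more in replicate 1.

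Of the 61 members 34 (55.7%) reached 1 TPM in both libraries, against 9968 of 21901 protein-coding genes (45.5%). The median of the mean levels was 5.36 TPM over the members and 0.405 TPM over all protein-coding genes. The medians within replicates 1 and 2 were 5.37 and 4.73 TPM over the members (SD 0.453, n = 2). Over all protein-coding genes they were 0.38 and 0.39 TPM (SD 0.00707, n = 2). Levels were uneven: 9 members exceeded 100 TPM in each library, while 25 were below 1 TPM in both. The 6 CD-named tetraspanins had a median of mean levels of 92.3 TPM, and all 6 were detected. Their medians within replicates 1 and 2 were 82.1 and 103.6 TPM (SD 15.2, n = 2). All 4 integrin alpha chains that bind collagen, by contrast, were below 1 TPM.

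**Figure D1:**
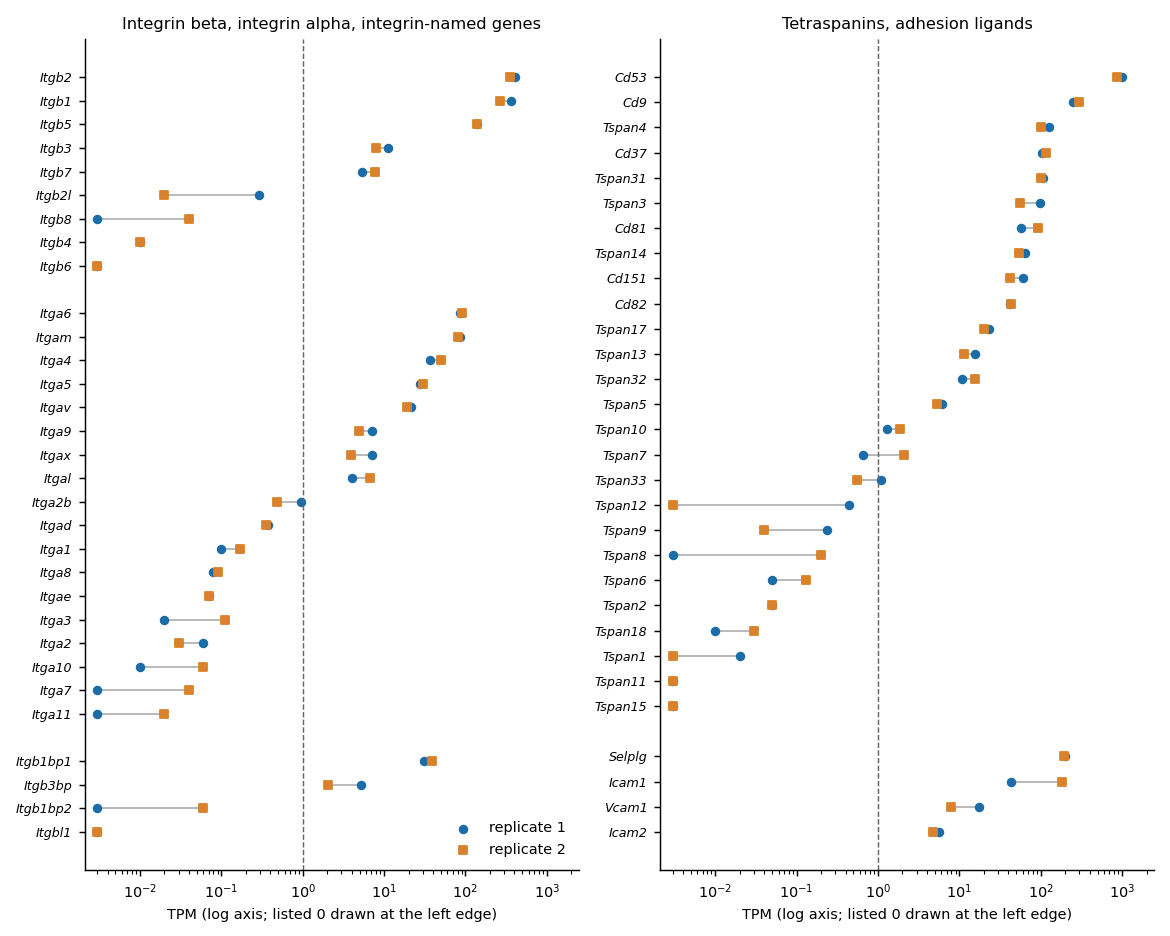
Level of each of the 61 genes in TPM (log axis), circles for replicate 1 and squares for replicate 2, ordered by mean level within each class, with a dashed line at 1 TPM. Cd53, at 993 and 864 TPM in replicates 1 and 2, lies at the top of all members, and the symbols of Icam1, at 42.9 and 182 TPM, lie far apart at a high level.

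Among integrin beta chains, 5 of 9 were detected. Itgb2 encodes the beta chain shared by the leukocyte integrins (mm10 chr10:77530252-77565708), and stood at 412 TPM in replicate 1 and 349 TPM in replicate 2, above 98.5% of protein-coding genes by mean level. Itgb1 encodes the chain that partners with the most alpha chains (chr8:128685654-128733200), and stood at 360 and 264 TPM in replicates 1 and 2. Itgb5 encodes a partner of the alpha v chain and stood at 138 TPM in replicate 1 and 139.7 TPM in replicate 2. These 3 genes made up nearly all beta chain RNA: Itgb2 had 44.5% and 45.4% of the summed beta TPM in replicates 1 and 2, and Itgb1 had 38.8% and 34.4%. The order of Itgb2, Itgb1 and Itgb5 was the same in both libraries.

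The remaining beta chains were far lower. Itgb3, the beta chain of the platelet fibrinogen receptor and of a vitronectin receptor, stood at 11.1 TPM in replicate 1 and 8.0 TPM in replicate 2. Itgb7, which pairs with alpha 4 and alpha E, stood at 5.37 and 7.79 TPM in replicates 1 and 2, close to Itgb3 in replicate 2. The second transcript table set them further apart in replicate 2, with Itgb7 at 4.57 TPM and Itgb3 at 6.99 TPM, and gave Itgb7 a mean level of 0.584 times that of the gene table. The epithelial chains Itgb4 and Itgb6 and the TGF-beta activating chain Itgb8 had at most 11 counts in either library. Itgb2l, a gene with a beta 2-like sequence, had 17 counts in replicate 1 and 2 counts in replicate 2.

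Among integrin alpha chains, 8 of 18 were detected and none exceeded 100 TPM. Itga6, a laminin receptor chain, stood at 85.9 TPM in replicate 1 and 89.6 TPM in replicate 2. Itgam (chr7:128062640-128118491) stood at 84.8 and 80.2 TPM in replicates 1 and 2. Itga6 thus lay above Itgam in both libraries at the gene level, an order that turns round when only its leading coding transcript is counted. Next came Itga4, the chain of the VCAM-1 receptor, at 36.3 TPM in replicate 1 and 49.8 TPM in replicate 2. The fibronectin receptor chain Itga5 stood at 27.5 and 30.5 TPM in replicates 1 and 2, and Itgav, the alpha v chain, at 21.5 and 19.3 TPM. The 5 alpha chains named so far held the same order in both libraries.

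The beta2 partners were dominated by 1 chain. Itgam had 88.0% of the summed TPM of the 4 beta2-partner chains in replicate 1 and 88.0% in replicate 2. Itgax, which encodes CD11c, stood at 7.11 TPM in replicate 1 and 3.88 TPM in replicate 2, and Itgal stood at 4.05 and 6.67 TPM. Itgax was thus above Itgal in replicate 1 and below it in replicate 2. Itgad, which encodes CD11d, was near the limit at 34.1 and 30.1 counts in replicates 1 and 2 (0.38 and 0.35 TPM). Itga9, a chain related to alpha 4, stood at 7.11 TPM in replicate 1 and 4.94 TPM in replicate 2. The platelet chain Itga2b had 58 counts in replicate 1 and 30 counts in replicate 2, while Itga1, Itga2, Itga3, Itga7, Itga8, Itga10, Itga11 and Itgae all lay below 0.2 TPM in both libraries. Itga1 had the most counts of these, with 26.0 in replicate 1 and 66 in replicate 2.

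Because chains act in pairs, the levels of beta chains were set beside the sum of the alpha chains they can join. Itgb2 stood at 4.28 times the summed TPM of its 4 partners in replicate 1 and at 3.84 times in replicate 2. Itgb5 stood at 6.42 (replicate 1) and 7.25 (replicate 2) times the TPM of Itgav, its partner. Itgb1 stood at 2.01 (replicate 1) and 1.36 (replicate 2) times the sum of its 12 partners, several of which also join other beta chains. In the other direction, Itgb3 stood at 0.493 (replicate 1) and 0.405 (replicate 2) of its partners' sum, and Itgb7 at 0.148 and 0.156. Beta chain RNA therefore exceeded partner alpha RNA for Itgb2, Itgb1 and Itgb5 in both libraries and fell short of it for Itgb3 and Itgb7. The partner sum of Itgb3 is nearly all Itgav and that of Itgb7 nearly all Itga4. Both alpha chains were counted in full for every beta chain they can join, among them Itgb1. The sums also use gene levels, which include transcripts with no coding part. These are RNA levels, and chain protein was not measured.

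**Figure D2:**
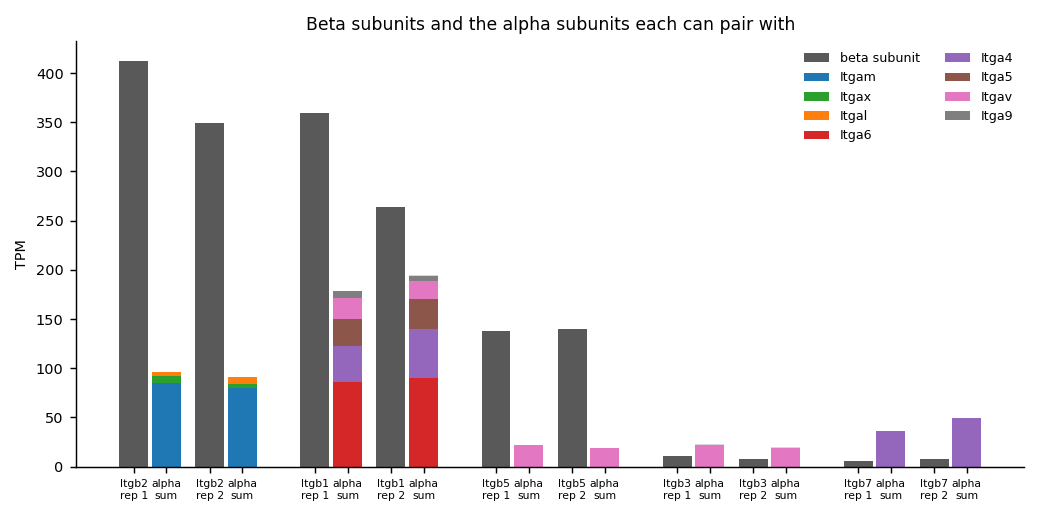
Level in TPM of 5 beta chains (grey bars) and, to the right of each, the stacked levels of the alpha chains it can pair with, for replicate 1 and then replicate 2. Itgam fills nearly all of the beta2 partner bar, and the Itgb2, Itgb1 and Itgb5 bars are taller than their partner bars in both libraries.

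The 4 genes named after integrins without being subunits were split. Itgb1bp1, which encodes the beta 1 tail-binding protein ICAP-1, stood at 31.4 TPM in replicate 1 and 38.6 TPM in replicate 2. Itgb3bp, which encodes the centromere protein CENP-R, stood at 5.23 and 2.05 TPM in replicates 1 and 2. Itgb1bp2, a muscle chaperone gene, had 0 and 1 counts in replicates 1 and 2, and Itgbl1 had 0 in both.

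All 4 adhesion ligand genes were detected, with a median of 30.2 TPM in replicate 1 alone and 95.1 TPM in replicate 2 alone. Selplg, which encodes the P-selectin ligand PSGL-1, stood at 200.3 TPM in replicate 1 and 196 TPM in replicate 2. Icam1, the endothelial and leukocyte ligand of LFA-1 and Mac-1 (chr9:21015985-21028817), stood at 42.9 TPM in replicate 1 and 182 TPM in replicate 2. Vcam1, the ligand of alpha 4 beta 1 (chr3:116109949-116129688), stood at 17.5 and 7.92 TPM in replicates 1 and 2, and Icam2, another LFA-1 ligand, at 5.6 and 4.73 TPM. Selplg was steady between the libraries, while Icam1 and Vcam1 went opposite ways.

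Tetraspanins were the largest class and the one with the highest total, at 1961 TPM in replicate 1 and 1820 TPM in replicate 2, and 15 of 26 were detected. Cd53, a tetraspanin of blood cells (chr3:106759921-106790149), stood at 993 TPM in replicate 1 and 864 TPM in replicate 2, which was 50.7% and 47.5% of the tetraspanin total. Cd9, which in mice restrains macrophage fusion together with Cd81, stood at 249 and 293 TPM in replicates 1 and 2. Cd81 stood at 58.0 TPM in replicate 1 and 92.0 TPM in replicate 2. Cd37, another leukocyte tetraspanin, stood at 104 TPM in replicate 1 and 115 TPM in replicate 2. Cd151, a partner of laminin-binding integrins, was higher in replicate 1, at 60.2 TPM against 42.0 TPM in replicate 2. Cd82 was even between them, at 42.0 and 43.3 TPM in replicates 1 and 2. Cd53 was the highest and Cd9 the next in both libraries. The order below them was not fixed, with Cd81 above Cd82 in both but below Cd151 only in replicate 1.

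The TspanC8 group, tetraspanins that carry the protease ADAM10 to the cell surface, had 4 of 6 members detected. Tspan14 stood at 64.3 TPM in replicate 1 and 54.3 TPM in replicate 2. Tspan17 followed at 23.1 and 19.9 TPM in replicates 1 and 2, and Tspan5 at 6.05 and 5.39 TPM. Tspan10 was at 1.30 and 1.89 TPM in replicates 1 and 2, Tspan33 at 1.08 and 0.55 TPM, and Tspan15 had 0 counts in both. Their client Adam10 stood at 45.0 TPM in replicate 1 and 52.4 TPM in replicate 2. The order Tspan14, Tspan17, Tspan5 held in both libraries.

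Of the 14 other tetraspanins, 5 were detected. Tspan4, known for its place in migrasomes, stood at 128 TPM in replicate 1 and 101 TPM in replicate 2. Tspan31 stood at 105 and 102 TPM in replicates 1 and 2, and Tspan3 at 98.1 and 55.3 TPM. Tspan13 stood at 15.5 and 11.3 TPM in replicates 1 and 2 and Tspan32, a gene of blood-forming cells, at 10.7 and 15.7 TPM. The remaining 9 were Tspan7, at 0.65 TPM in replicate 1 and 2.1 TPM in replicate 2, and 8 genes below 0.5 TPM in both. Those 8 are Tspan1, Tspan2, Tspan6, Tspan8, Tspan9, Tspan11, Tspan12 and Tspan18. Expected counts of 0 in both libraries of the gene table were listed for Itgb6, Itgbl1, Tspan11 and Tspan15. For counting error alone a 0 there allows up to 3 counts, or a CPM (counts scaled to library size) of 0.0794 in replicate 1 and 0.0578 in replicate 2. It does not cover how reads were assigned: in the second table Itgb6 had 27.9 and Tspan15 had 11.1 estimated counts in replicate 2.

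Some member exons overlap exons of other genes, and whether counting used strand is not stated, so part of those values may be shared. Tspan31 shares 641 bases (29.2% of its exon bases) with Cdk4 on the other strand, which stood at 74.4 TPM in replicate 1 and 75.4 TPM in replicate 2. Tspan4 shares 292 bases (13.4%) with Chid1, at 26.95 and 15.15 TPM in replicates 1 and 2. Itgb1bp1 overlaps Cpsf3, and Itgb3bp overlaps Pgm1. The levels of these 4 members are uncertain for that reason. Itgam shares 3450 bases (68.7%) with Gm49368 on the same strand, to which the authors' counting gave 0.67 and 0.65 TPM in replicates 1 and 2.

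The libraries were then compared with sampling noise. An exact two-sided binomial test was run on rounded expected counts of 12266 genes, scaled by trimmed mean of M-values (TMM), with Benjamini-Hochberg adjustment over all of them. It asks only whether these 2 libraries differ by more than counting error, and it says nothing of a condition. Of 39 members with enough counts to be tested, 20 were higher in replicate 1, or 51.3% against 31.4% of all genes tested. Lower in replicate 1 were 9 members, or 23.1% against 32.1%. With scaling by total counts, which moved the median of all genes to -0.12 on the log2 scale, the split among members was 16 higher and 14 lower, and among all genes 2487 higher and 5254 lower. Beyond 2-fold were 5 members, or 12.8% against 8.05% of all genes. The median absolute log2 ratio was 0.46 over the members tested and 0.27 over all genes. The other 22 members had too few counts for the test.

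Icam1 had the largest ratio of the 39 members tested. It had 2420 expected counts in replicate 1 and 14277 in replicate 2, a log2 ratio of replicate 1 over replicate 2 of -1.98, or 3.96-fold higher in replicate 2. Its adjusted p was too small to be written as a number. The values of 3 early NF-kB targets are given beside it. Nfkbia, the NF-kB inhibitor, stood at 545 TPM in replicate 1 and 1178 TPM in replicate 2. Tnf stood at 855 and 1691 TPM in replicates 1 and 2, and Tnfaip3, which encodes the feedback regulator A20, at 147 and 356 TPM. All 3 were called lower in replicate 1, as were 32.1% of all genes tested, while Vcam1, a member that is also a known NF-kB target, was higher there. They were picked by hand with earlier results of these data known, and their part in the Icam1 difference was not tested.

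Vcam1 lay on the other side, with 1372 counts in replicate 1 and 832 in replicate 2, a log2 ratio of 1.30 (adjusted p = 2.3e-95, exact binomial test). Itga9 had 1173 and 782 counts in replicates 1 and 2, a log2 ratio of 1.16, although its TPM differed by only 1.44 times. Itga2b had 58 and 30 counts in replicates 1 and 2, a log2 ratio of 1.51 (adjusted p = 4.8e-06, exact binomial test). Of megakaryocyte markers, Pf4 stood at 962 TPM in replicate 1 and 250.3 TPM in replicate 2, and Ppbp at 9.05 and 1.96 TPM, while Gp1ba, Gp9 and Gp6 were below 0.5 TPM in both. The summed level of these 5 markers, nearly all of it Pf4, was 972 TPM in replicate 1 and 253 TPM in replicate 2. Gp1ba, with 28 and 36 counts in replicates 1 and 2, had a log2 ratio of 0.21 (adjusted p = 0.68, exact binomial test). The part of these markers in the Itga2b difference was not tested. Stromal markers Col1a1, Col1a2, Dcn and Pdgfra, of cells that can express Vcam1, were all at or below 0.32 TPM. Of endothelial markers, Kdr stood at 5.12 TPM in replicate 1 and 11.83 TPM in replicate 2, and Pecam1 at 1.19 and 0.48 TPM. Cdh5 and Tek were at 0.3 TPM or less in both. The part of such cells in the Vcam1 difference was not tested. In bulk RNA, fewer cells of a type and less RNA per cell cannot be told apart.

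Tspan7, the fifth member beyond 2-fold, had 24 counts in replicate 1 and 110 in replicate 2, a log2 ratio of -1.60. Just inside the 2-fold line were Itgax at a log2 ratio of 0.97, Tspan3 at 0.92, Tspan33 at 0.91, Itgb3bp at 0.87 and Itgb7 at -0.84. Tspan33 had only 47 and 37 counts in replicates 1 and 2, and its log2 ratio was 0.51 in the second table. Several abundant members had smaller shifts that exceeded counting error. Itgb1 had a log2 ratio of 0.53, Itgb2 of 0.36, Cd53 of 0.30 and Cd151 of 0.60, all higher in replicate 1. In the other direction Cd81 had -0.73, Itgal -0.68, Tspan32 -0.40, Itga4 -0.36 and Cd9 -0.13. Tspan4, Tspan13, Tspan14, Tspan31, Itgb3, Itgav and Icam2 were also called higher in replicate 1, at log2 ratios between 0.15 and 0.55, and Itga1 lower at -0.76. With scaling by total counts Tspan31, Itgav and Icam2 no longer passed the test, at 0.028, 0.054 and 0.44. Selplg was called higher in replicate 1 at 0.11, but stood at -0.0097 with scaling by total counts.

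Members that did not pass the test were Itgb5, Itga5, Itga6, Itgad, Itgb1bp1, Cd37, Cd82, Tspan5, Tspan10 and Tspan17. Itgb5 and Itga6 had log2 ratios of 0.037 and 0.033, and their direction reversed with scaling by total counts. Some of these 10 passed under an alternative. With scaling by total counts Cd37, Tspan5, Itgb5, Itga6 and Itga5 passed as lower in replicate 1. Itgb5 passed as higher with DESeq2 size factors, and Itgb5, Itga6, Cd82, Tspan17 and Itgad passed as higher in the second table. The calls of Itgb5 and Itga6 thus went opposite ways between these settings. Neutrophil markers also differed between the libraries, with S100a9 at 183 TPM in replicate 1 and 37.1 TPM in replicate 2, and S100a8 at 124 and 18.1 TPM. The 5 listed neutrophil markers summed to 308 TPM in replicate 1 and 55.3 TPM in replicate 2, with Ly6g, Mpo and Elane at 1.11 TPM or less. Itgb2 and Itgam, which neutrophils also carry, were higher in replicate 1 by log2 ratios of 0.36 and 0.17. The Itgam ratio was 0.049 with scaling by total counts. Of the other beta2 partners, Itgax was higher in replicate 1 at 0.97, Itgal was lower at -0.68 and Itgad did not pass. The part of such cells in those differences was not tested.

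**Figure D3:**
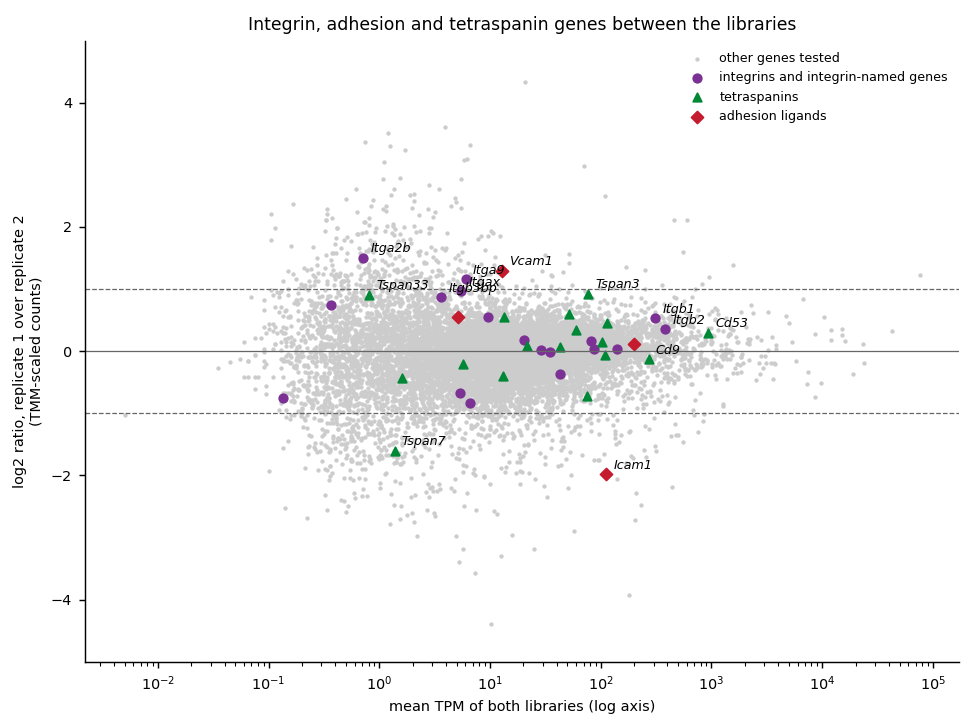
Log2 ratio of replicate 1 over replicate 2 in TMM-scaled counts against mean TPM (log axis), for the 39 members tested (coloured) and the other genes tested (grey), with dashed lines at 2-fold. Icam1 lies at -1.98, Vcam1 at 1.30, and the abundant Itgb1, Itgb2 and Cd53 lie between 0.30 and 0.53.

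Transcripts were read from the deposited transcript tables for the 25 members with a mean of 10 TPM or more. A single leading transcript was the same in both libraries and both tables for 21 of them. In the first table it took 90% or more of the gene's TPM in both libraries for 11 members. Of these, Itga5-201 took 93.1% in replicate 1 and 79.5% in replicate 2 in the second table. Cd53 has 1 annotated transcript. The leading transcript of Itgb1 took 99.7% in replicate 1 and 99.2% in replicate 2. Taken by mean share over both libraries in the first table, all 25 leading transcripts are annotated as protein coding. In replicate 2 alone Itga6 was led by Itga6-203, a processed transcript, at 48.93% against 48.61% for Itga6-201.

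Itga6 was split in a way that bears on its rank. Its protein-coding transcript Itga6-201, of 26 exons, took 50.99% of the gene's TPM in replicate 1 and 48.6% in replicate 2. Itga6-203, a processed transcript of 3 exons and 2721 bases with no coding part, took 48.0% and 48.9% in replicates 1 and 2. The second transcript table gave Itga6-203 45.6% and 46.8% in replicates 1 and 2. The protein-coding Itga6-201 alone stood at 43.8 TPM in replicate 1 and 43.6 TPM in replicate 2, below the gene level of Itgam in both libraries.

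Itgb5 was divided between coding transcripts of unlike length. Itgb5-207, with 11 exons and 1458 coding bases, took 54.2% of the gene's TPM in replicate 1 and 48.6% in replicate 2. Itgb5-202, with 15 exons and 2397 coding bases, took 42.5% and 46.8% in replicates 1 and 2. In the second table Itgb5-207 took 47.3% in replicate 1 and 40.7% in replicate 2 and Itgb5-202 took 46.7% and 53.2%, so the tables disagree on which leads in replicate 2.

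For the 3-base splice differences printed above, both forms were present. Itgam-203, without the extra bases, took 56.0% in replicate 1 and 61.0% in replicate 2, and Itgam-201, with them, took 44.0% and 38.2%. Itgal-201, with its extra bases, took 42.8% and 47.9% in replicates 1 and 2, and Itgal-202 took 31.4% and 35.4%. Another coding transcript, Itgal-203 of 21 exons, took 25.86% and 16.67% in replicates 1 and 2, but 0% of both in the second table. In the second table Itgal-202 was ahead instead, at 55.1% and 50.9% in replicates 1 and 2, and Itgal-201 took 44.9% and 49.1%. Within the coding part only reads across the junction tell such forms apart, so these shares are estimates.

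Icam1 differed between the libraries in its transcripts as well as its level. Icam1-202, a retained-intron transcript, took 3.53% of the gene's TPM in replicate 1 and 11.3% in replicate 2, and the second table gave 3.87% and 11.6%. In TPM it stood at 1.51 in replicate 1 and 20.6 in replicate 2, or 13.7 times as high in replicate 2. The protein-coding Icam1-201 stood at 41.4 TPM in replicate 1 and 162 TPM in replicate 2, or 3.91 times as high. Transcripts annotated as other than protein coding took a larger share in replicate 2 for 20 of the 23 members that had any, and for 71.7% of 5179 protein-coding genes at that level. Gm47079, on the other strand, overlaps 11.7% of Icam1 exon bases and stood at 0.03 and 0.48 TPM in replicates 1 and 2.

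Transcript shares differed between the libraries in other members too. Tspan17-201, the leading transcript of Tspan17, took 47.3% in replicate 1 and 69.95% in replicate 2, and 40.9% and 63.7% in the second table. Shares were steadier in Cd151. Cd151-203 took 63.9% in replicate 1 and 62.2% in replicate 2. Cd151-202, which has the same coding length of 759 bases, took 29.3% and 29.5% in replicates 1 and 2. Cd81-204, a short coding transcript, took 16.8% of its gene in replicate 1 and 2.37% in replicate 2, and 24.8% and 12.4% in the second table. Tspan32-202 took 47.2% in replicate 1 and 32.1% in replicate 2, while Tspan32-203 took 26.8% and 36.9%, so in the first table the leader differed. In the second table Tspan32-202 led in both libraries, at 45.0% and 34.8% in replicates 1 and 2. There Tspan32-203 took 26.5% and 34.0%. Itgb1bp1-202 led that gene in replicate 1 at 42.3%, and at 35.8% in replicate 2 it stood beside Itgb1bp1-207 at 34.0%. In the second table Itgb1bp1-207 led in replicate 2, at 37.0% against 35.3% for Itgb1bp1-202.

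**Figure D4:**
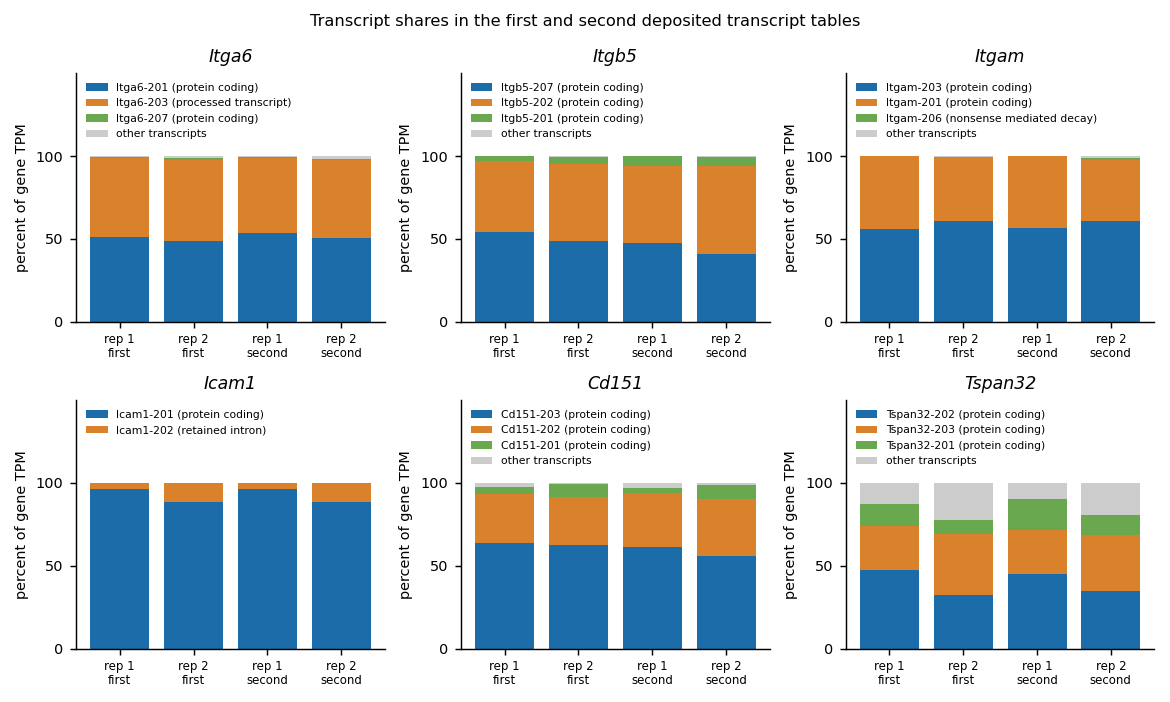
Percent of each gene's TPM taken by its leading transcripts in 6 genes, for replicate 1 and replicate 2 in the first deposited transcript table and in the second. Itga6 is divided almost evenly between a coding and a processed transcript in every bar, and the retained-intron share of Icam1 is larger in replicate 2 in both tables.

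Genes that act with the integrins were described from lists written with earlier results of these data known, by counts and levels only. Of 24 activators and adaptors, 19 were detected, with a median of 49.7 TPM. Fermt3, the kindlin of blood cells, stood at 159 TPM in replicate 1 and 167 TPM in replicate 2, while Fermt1 and Fermt2, the kindlins of other tissues, were at 0.06 TPM or less. Rap1b, a small GTPase that drives talin to integrins, stood at 280.4 and 324 TPM in replicates 1 and 2. Fyb, the adaptor ADAP, stood at 251 and 328 TPM in replicates 1 and 2, and the actin crosslinker gene Flna at 289 and 172 TPM. Tln2, Parva and Lims2 were also below 1 TPM in both libraries. Of 19 kinases and other signalling genes 17 were detected, with a median of 108 TPM. The adaptor genes Tyrobp and Fcer1g stood at 3066 and 1206 TPM in replicate 1 and at 3419 and 1421 TPM in replicate 2. Next were Slc3a2, a beta chain-binding transporter gene, at 422 TPM in replicate 1 and 373 TPM in replicate 2, and the GTPase gene Rhoa at 420.2 and 372 TPM.

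Most genes for extracellular integrin ligands were not detected. Of 27 matched ligand genes 9 were detected, with a median of 0.22 TPM. Spp1, which encodes osteopontin, stood at 2400 TPM in replicate 1 and 2935 TPM in replicate 2. Tgfb1 and Thbs1 stood at 339.8 and 328 TPM in replicate 1 and at 289.8 and 297 TPM in replicate 2. Mfge8, the bridge between alpha v integrins and dying cells, stood at 204 and 173 TPM in replicates 1 and 2. Fibronectin gene Fn1 was at 1.23 and 0.71 TPM in replicates 1 and 2, and vitronectin gene Vtn was listed at 0. Osteopontin, thrombospondin, latent TGF-beta and MFG-E8 are all ligands of alpha v integrins.

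Cd63, a lysosomal tetraspanin outside the chosen symbols, stood at 1339 TPM in both libraries, above Cd53, and of the 5 tetraspanins of that list only it and Rom1 were detected. Of 20 tetraspanin partners 14 were detected, with a median of 37.6 TPM. Cd36, a scavenger receptor gene, stood at 738 TPM in replicate 1 and 182 TPM in replicate 2, and Ifitm3, an antiviral gene, at 834 and 1686 TPM. Rtn4 stood at 485 and 375 TPM in replicates 1 and 2 and Bsg at 337 and 274 TPM.

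Of 18 selectins and genes for their ligands' sugars and sulfation 14 were detected, with a median of 8.75 TPM. Cd44, a hyaluronan receptor that also carries selectin ligands, stood at 186 TPM in replicate 1 and 116 TPM in replicate 2. The galactosyltransferase gene B4galt1 stood at 48.2 and 47.2 TPM in replicates 1 and 2, and Glg1 at 59.0 and 52.3 TPM. Tpst2, a tyrosine sulfotransferase gene, stood at 29.2 and 32.6 TPM in replicates 1 and 2. Fut7, the fucosyltransferase gene needed for selectin binding by PSGL-1, was chosen after its values were seen and stood at 1.40 TPM in replicate 1 and 1.21 TPM in replicate 2. The selectin genes Selp and Sele were at 0.58 TPM or less. Of 21 other matched adhesion molecules 8 were detected, with a median of 0.275 TPM. Sirpa, the inhibitory receptor for CD47, stood at 1465 and 1343 TPM in replicates 1 and 2, and its ligand gene Cd47 at 225 and 234 TPM. Alcam stood at 136 and 148 TPM in replicates 1 and 2 and Pvr at 19.5 and 47.6 TPM.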

How the data were processed

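PolyA RNA-seq of 2 libraries of 1 group was analysed. The deposited gene and transcript tables hold expected counts, TPM and the percent of a gene's TPM per transcript, per the file headers; a further deposited transcript table holds estimated counts and TPM. The labels give mm10 and the transcript names match GENCODE M21; no label or header used here names the aligner or quantifier. Counts naming no gene were 0.0891% in replicate 1 and 0.0698% in replicate 2. Expected counts were rounded, filtered with filterByExpr and scaled by TMM in edgeR 4.0.16 (R 4.3.3), and each gene was tested with an exact binomial test (scipy 1.17.1, Python 3.11.15) at an adjusted p of 0.05, with a prior count of 0.5 in ratios. This step was tested on simulated data. DESeq2 1.42.0 gave size factors for an alternative. The p-values measure only the difference between these libraries. Levels of 1 TPM or more in both libraries count as detected. Members, lists and roles were chosen with earlier results of these data known. All members are named, those at a mean of 10 TPM or more with both values; of each list, the 4 highest genes and defining genes below 1 TPM. Promoters are from RefSeq; those of Itgae, Selplg, Vcam1, Itgb3, Tspan18, Icam2, Itgad, Itgb2, Itgb1bp2, Itga7, Itga6, Itgb4 and Itgal were not used here. Alternatives were the detection limit, each library alone, the second table, posterior mean TPM, scaling, filter and prior count.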

Additional observations from a re-analysis of the deposited data

How the results depend on the processing

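No paired analysis was possible because there is 1 group. The count of detected members lay between 28 and 37 under all alternatives run, against 34. The count of members called between the libraries lay between 30 and 33, against 29. The count beyond 2-fold was 18 with no filter on low counts and 3 with the ratio of TPM + 1, against 5, since the first adds genes with few counts and the second shrinks low levels. With each library alone the adhesion ligand median lay between 30.2 and 95.1 TPM, against 62.6, and that of the integrin-named genes between 1.055 and 2.615 TPM, against 1.835. Other class medians that moved were integrin alpha at 1.57 TPM with posterior mean TPM against 0.54, integrin beta at 3.84 TPM in the second table against 6.58, and tetraspanins at 8.22 TPM in the second table, 9.80 TPM with posterior means and 8.365 TPM in each library alone, against 9.455. In the second table the leading share was 44.0% for Itgb5-207 against 51.4%, 52.1% for Itga6-201 against 49.8% and 58.7% for Cd151-203 against 63.1%; the cause was not tested. With scaling by total counts the log2 ratio turned to -0.0097 for Selplg, -0.081 for Itgb5, -0.084 for Itga6, -0.053 for Cd82, -0.097 for Itga5 and -0.027 for Tspan17, and in the second table to 0.039 for Itgb1bp1 and -0.040 for Itga5. No other ratio of the 39 tested members changed direction with these, with DESeq2 size factors or with no filter. Having 2 libraries of 1 group limits every statement to levels and to the difference between them, and members at under 10 counts are set by counting error.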

Other observations

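Some members at or near 0 in the gene table had more estimated counts in the second transcript table. Itga1 had 51.4 estimated counts in replicate 1 and 257 in replicate 2, beside 26.0 and 66 expected counts. Itgb6 had 2.0 and 27.9, beside 0 and 0, Itga7 had 10.2 and 23.7, beside 0 and 1, and Tspan18 had 7.1 and 17.0, beside 1 and 4. Tspan15 had 0 and 11.1, beside 0 and 0. At a mean of 1 TPM or more the second table gave a median of 0.840 times the gene table's TPM over 35 members and 0.862 times over 11100 genes.

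Posterior mean TPM, a further column of the gene table, gave Itgb6 2.75 TPM in replicate 1 and 2.28 TPM in replicate 2 although its expected count is 0 in both.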
